A study of Mus musculus with 2 samples.

Results

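The 7 genes described here carry, move, activate and sense thyroid hormone, and were measured in liver RNA of mice lacking the nuclear receptor PPARα and of wild-type mice. They are the serum carriers Serpina7, Ttr and Alb, the membrane transporter Slc16a10, the deiodinase Dio1 and the receptors Thra and Thrb. Members were all probe sets of the signal table whose platform symbol is 1 of these 7 names, which gave 15 of the 34945 probe sets with 1 symbol and 7 of 18193 named genes. The mice were either pparalpha -/- (here Ppara-null) or wild type, all of them male 129SvEJ animals of 8 weeks. Both genotypes ate chow with 0.2% fenofibrate, a lipid-lowering drug that activates PPARα, for 7 days, and the liver RNA of 3 mice per genotype was pooled for 1 Affymetrix array. The contrast is thus between genotypes on the drug, and mice off the drug were not analysed here. With 1 array per genotype there are no replicates, so each value below is a single measurement of a pool, given without test, error or p-value.

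Thyroid hormone leaves the thyroid mainly as thyroxine (T4), which travels in blood bound to thyroxine-binding globulin, transthyretin and albumin, all made by hepatocytes. Cells take it up through membrane transporters, deiodinases remove iodine to make or destroy the active form T3, and T3 acts through the nuclear receptors encoded by Thra and Thrb. In liver Dio1 is the main deiodinase and is itself induced by T3, and the beta receptor is the predominant form. Thyroid hormone receptors and PPARα both bind DNA as partners of the retinoid X receptor.

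Signals were used as the authors scaled them, to a target of 1000 on each array. The median signal of each array, 269.4 in Ppara-null and 287.8 in wild type, served as a floor that replaced any lower signal. Log2 ratios are of Ppara-null over wild type. The brightest probe set stands for its gene, and where 1 of the signals is the floor the fold is given as "at least". A second mark of background is the brightest of the control probe sets for Bacillus transcripts, 422.4 in Ppara-null and 316.5 in wild type. Different probe sets of the same gene scattered around their mean log2 ratio with an SD of 0.52 among dim, 0.43 among middling and 0.31 among bright genes, the 10060 genes measured on both arrays being divided into 3 equal classes by signal. This SD is a measure of scatter inside the pair of arrays and holds no difference between mice. All 7 members were above the floor on both arrays at their brightest probe set. Of the 15 probe sets, 11 were above it on both arrays, 2 only in wild type, 1 only in Ppara-null and 1 on neither.

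The arrays differed in ways that touch every small ratio below. All 18 hybridization control probe sets, which report transcripts added to each sample, were brighter on the Ppara-null array, with log2 ratios between 0.12 and 0.73 and a median of 0.38. Over the 10060 genes the median log2 ratio was 0.02 and the middle 90% lay between -0.88 and 0.78. Of 13041 genes measured on at least 1 array, 651 were at least 2-fold lower in Ppara-null and 365 at least 2-fold higher, so that lower genes made up 64.1% of the calls. This share was 94.2% after scaling to the hybridization controls (1759 lower and 109 higher) and 49.5% with floors at the Bacillus controls (297 lower and 303 higher). The ratio of 3′ to 5′ signal was 0.741 in Ppara-null and 0.679 in wild type for Gapdh, and 2.27 in Ppara-null and 1.89 in wild type for Actb. The disrupted stretch of Ppara is not stated in the sources used here, so its probe sets may lie outside it. The 3 probe sets of the targeted gene, Ppara, gave 42.9%, 50.6% and 36.0% of the wild-type signal in Ppara-null.

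In the deposited scaling, 1 of the 7 members, Serpina7, was at least 2-fold lower in Ppara-null (background 4.99% of measured genes) and 0 were at least 2-fold higher (background 2.80%). At 1.5-fold, Serpina7 and Dio1 were lower (background 14.8%) and Slc16a10 was higher (background 11.0%). The members were selected on the ratios of these same 2 arrays, so these counts describe them and nothing is read from the background. By sign, 3 members were lower and 4 higher (of all 13041 measured genes, 6567 and 6473), and the median log2 ratio of the 7 was 0.14. The split turned with the scaling, since 5 were lower and 2 higher with the control scaling (median -0.24), and 4 were lower and 3 higher after quantile normalization (median -0.03) and after loess (median close to 0).

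**Figure D1:**
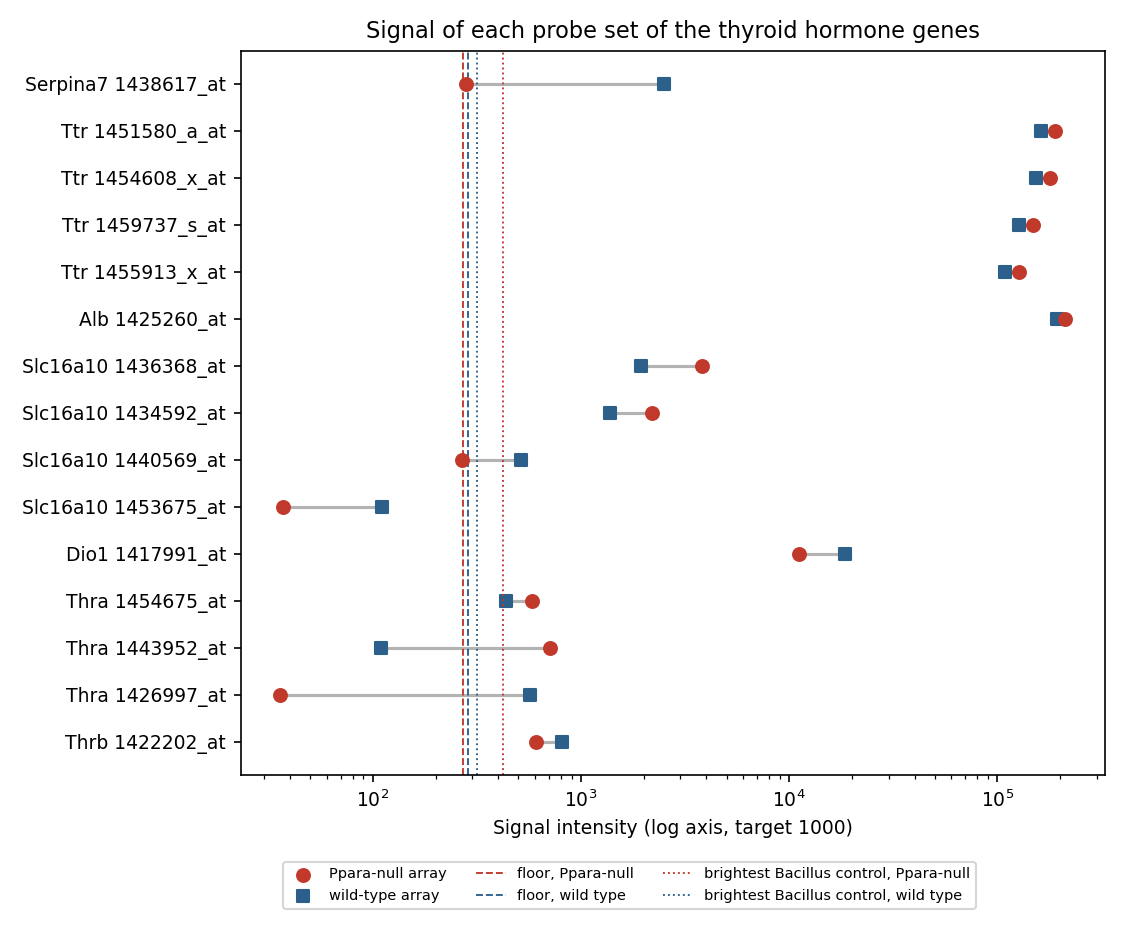
Signal intensity of each of the 15 probe sets (rows) on the Ppara-null array (circles) and the wild-type array (squares), on a log axis, with the floor (dashed) and the brightest Bacillus control (dotted) of each array. The Ppara-null signal of Serpina7 (281.2) lies between the floor and the Bacillus control of that array, the Ttr and Alb signals lie over 100000 on both arrays, and the 3 Thra probe sets point in different directions.

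Among the serum carriers, the single Serpina7 probe set stood apart from those of Ttr and Alb. Serpina7 encodes thyroxine-binding globulin, the high-affinity carrier of T4, a serpin that has lost protease inhibition. Its signal was 281.2 in Ppara-null livers and 2505.9 in wild-type livers. The Ppara-null signal was 1.04 times its floor and lay below the brightest Bacillus control of that array, so it cannot be told from background, while the wild-type signal was 8.71 times its floor. Taken as a bound against the Bacillus control, Serpina7 was at least 5.93-fold lower in Ppara-null, and with the floor at the 75th percentile at least 3.06-fold lower. The signals as deposited differed 8.91-fold, a log2 ratio of -3.16, whose size rests on the Ppara-null signal near background. In bulk liver RNA, fewer cells that make a transcript and less of it per cell cannot be told apart.

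Ttr and Alb, the abundant carriers of lower affinity, differed little between the arrays. Ttr, which encodes transthyretin, the carrier that also binds retinol-binding protein, gave 188678 in Ppara-null and 161740 in wild type at its brightest probe set. Its other 3 probe sets gave 178013, 148713 and 126662 in Ppara-null against 153967, 127378 and 108608 in wild type. All 4 were higher in Ppara-null, with log2 ratios between 0.21 and 0.22. This close agreement is between probe sets of the same 2 arrays, and 3 of the 4 names end in _x_at or _s_at, which mark probes that may match several transcripts. Alb, which encodes albumin, the carrier of lowest affinity and highest abundance in plasma, gave 212369 in Ppara-null and 192642 in wild type, a log2 ratio of 0.14.

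The ratios of both genes were smaller than the scatter SD of bright genes (0.31). They were also within the range of all bright probe sets. Of the 61 that exceeded 100000 on both arrays, 5 of them from Ttr and Alb, 57 were higher on the Ppara-null array, with a median log2 ratio of 0.22. The direction of both genes depended on the scaling, since after scaling to the hybridization controls the log2 ratios were -0.16 for Ttr and -0.24 for Alb, and that of Alb was -0.03 after quantile normalization and below 0 after loess. No direction is therefore given for Ttr or Alb. Ttr and Alb are also hepatocyte markers, and of the 9 measured hepatocyte markers, these included, all 9 were higher in Ppara-null in the deposited scaling, with a median log2 ratio of 0.30. With the control scaling 7 of the 9 were lower and 2 higher (median -0.08). Over all 13041 measured genes, 6567 were lower and 6473 higher in the deposited scaling.

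Slc16a10, which encodes MCT10, a transporter of aromatic amino acids and thyroid hormones, was higher in Ppara-null at its 2 brighter probe sets. The brightest gave 3811 in Ppara-null and 1930 in wild type (1.97-fold higher), and the next gave 2201 in Ppara-null and 1385 in wild type (1.59-fold higher). Both ratios exceeded the scatter SD at their signals. A dimmer probe set pointed the other way, with 267.4 in Ppara-null, just under the floor, and 517.3 in wild type, at least 1.92-fold lower, or at least 1.22-fold against the Bacillus control. The fourth was under the floor on both arrays (36.8 in Ppara-null and 110.7 in wild type). By its brightest probe set the gene ranked 238th from the highest of 10060. Its log2 ratio of 0.98 became 0.60 with the control scaling and 0.67 as the median over its measured probe sets.

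Dio1, which encodes the type 1 iodothyronine deiodinase, a selenoenzyme that converts T4 to T3 and clears reverse T3, was lower in Ppara-null. Its only probe set gave 11116 in Ppara-null, 41.3 times the floor, and 18479 in wild type, 64.2 times the floor, so both signals were far from background. The log2 ratio was -0.73 (1.66-fold lower), larger than the scatter SD of bright genes, and 7.58% of the 10060 genes had a lower ratio. Across median centring, quantile normalization, loess and control scaling, Dio1 stayed lower, with log2 ratios between -1.11 and -0.72. It passed the 2-fold threshold only with the control scaling (2.16-fold lower).

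The receptors gave signals only a few times the floor. Thrb, which encodes the beta receptor, gave 609.6 in Ppara-null and 806.1 in wild type at its single probe set. The log2 ratio of -0.40 was smaller than the scatter SD of dim genes (0.52), and 18.2% of genes had a lower one. Thra, which encodes the alpha receptor and a splice form that does not bind T3, had 3 probe sets that disagreed. The brightest gave 581.6 in Ppara-null and 435.8 in wild type, a log2 ratio of 0.42 that was also smaller than the scatter SD. The second gave 708.3 in Ppara-null and 109.9 in wild type, at least 2.46-fold higher, or at least 2.24-fold against the Bacillus control. The remaining one gave 35.7 in Ppara-null and 567.2 in wild type, at least 2.11-fold lower, or at least 1.34-fold against the Bacillus control. Each of these last 2 was under the floor on 1 array, and the files do not say which splice form a probe set reports. In the RefSeq gene table, Thra overlaps Nr1d1, the gene of the clock repressor REV-ERBα, whose probe set gave 313.7 in Ppara-null and 138.6 in wild type, each under the Bacillus control of its array. No direction is given for Thra.

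**Figure D2:**
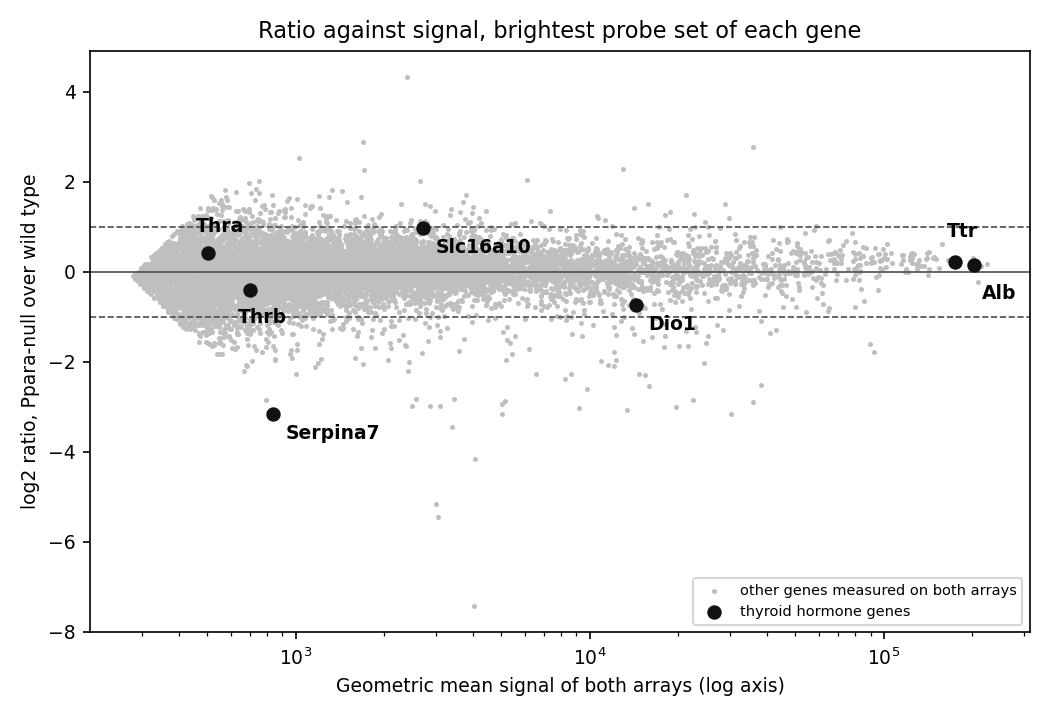
Log2 ratio of Ppara-null over wild type (vertical axis) against the geometric mean signal of both arrays (log axis) for the 10060 genes measured on both, each at its brightest probe set, with the 7 thyroid hormone genes in black and 2-fold marked by dashed lines. Serpina7, whose Ppara-null signal is at background, is drawn at -3.16 and lies below the other 6, Slc16a10 (0.98) lies just under the upper line, and Ttr (0.22) and Alb (0.14) lie at the bright end, where 57 of the 61 probe sets over 100000 on both arrays are above 0.

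The start regions of the members that were lower in Ppara-null by over 1.5-fold, Serpina7 and Dio1, are shown because PPARα and thyroid hormone receptors bind repeats of a common half-site, AGGTCA. The promoter table of RefSeq (GRCm38.p6) holds 250 bases before and 50 after a start site and has entries for 5 of the 7 members, Serpina7, Alb, Slc16a10, Dio1 and Thrb. Serpina7 has 2 start sites that lie 17 bases apart, and the downstream one is printed, at chrX:139085170-139085469 on the minus strand. Dio1 is printed at chr4:107307119-107307418, also on the minus strand. Capitals mark TATAAA, the core of a TATA box, and GTTAAT, a half-site of the hepatocyte factor HNF1, searched on both strands.
Serpina7: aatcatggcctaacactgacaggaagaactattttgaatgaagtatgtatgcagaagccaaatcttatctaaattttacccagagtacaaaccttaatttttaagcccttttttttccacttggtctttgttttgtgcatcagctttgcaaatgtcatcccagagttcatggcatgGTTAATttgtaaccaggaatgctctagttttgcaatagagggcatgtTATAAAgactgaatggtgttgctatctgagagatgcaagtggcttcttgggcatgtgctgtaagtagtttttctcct
Dio1: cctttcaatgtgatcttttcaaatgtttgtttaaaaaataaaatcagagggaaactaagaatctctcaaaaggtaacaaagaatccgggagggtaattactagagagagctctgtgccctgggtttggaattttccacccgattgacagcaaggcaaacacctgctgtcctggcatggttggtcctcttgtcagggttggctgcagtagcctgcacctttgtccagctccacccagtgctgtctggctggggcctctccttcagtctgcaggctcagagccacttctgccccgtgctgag

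In Serpina7, TATAAA began 27 bases before the printed start site and GTTAAT 74 bases before it, with no overlap. Counted from the other Serpina7 start site, TATAAA began 10 bases and GTTAAT 57 bases before it. The window of Dio1 held neither. These letters were not particular to Serpina7 among the members. GTTAAT was also in the windows of Alb and Slc16a10 and in 1 of the 2 Thrb windows, and TATAAA was in the other Thrb window. Of all 32851 promoters in the table, 13.6% held TATAAA and 7.10% held GTTAAT. The half-site AGGTCA was in neither printed window and in 16.3% of all promoters. It was present in 1 of the 2 Thrb windows. The repeats AGGTCANAGGTCA, spaced by 1 base as PPARα binds them, and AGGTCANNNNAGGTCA, spaced by 4 as thyroid hormone receptors bind them, were in 0.0396% and 0.0152% of all promoters and in none of the members' windows. A match is a description of the letters, not a binding site, and a missing one says only that these letters are not in this window.

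The genes nearest to Dio1 in log2 ratio were Slx4ip, Cd320 and Mbnl3 (-0.73 each). Over 2 arrays, likeness is closeness of this 1 number among 10059 other genes, and 449 of them lay within 0.1 of Dio1. No gene is named as like Serpina7, since only a bound is known for its ratio.

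The wider lists that follow are described by the number of measured members at least 2-fold apart and by their median, beside the median of all measured genes, which was -0.005 in log2 ratio, and beside the share of all measured genes past that threshold, 4.99% lower and 2.80% higher. By sign, 6567 of the 13041 measured genes were lower and 6473 higher. With the control scaling the median log2 ratio of all measured genes was -0.38. These lists were chosen with results known, and nothing particular to a list is read from its count or its signs. Among the other serum carriers of hormones, vitamins and ligands, 1 of 11 measured was at least 2-fold lower and 1 at least 2-fold higher, and the median log2 ratio was 0.19, or -0.18 with the control scaling. Igfbp2, which binds insulin-like growth factors, gave 9841 in Ppara-null and 26863 in wild type (2.73-fold lower). Igfbp1, of the same family, gave 35307 in Ppara-null and 14484 in wild type (2.44-fold higher), and it did not reach 2-fold with the control scaling. Named after their values were seen, Rbp4, the partner of transthyretin, had a log2 ratio of 0.18, and the corticosteroid carrier Serpina6, a close relative of Serpina7, one of 0.12.

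Of 8 measured clade A serpins other than Serpina7, 0 were at least 2-fold lower and 1 was higher, namely Serpina9, a serpin best known from germinal centre B cells (1261 in Ppara-null and 417.0 in wild type, 3.02-fold higher), which did not reach 2-fold with the floor at the 75th percentile. All 8 had positive log2 ratios (median 0.52), and 5 of them did so with the control scaling (median 0.15). Serpina1b and Serpina1c belong to a cluster of near-identical genes that the array may not separate.

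Of 9 measured thyroid hormone transporters beside Slc16a10, Slco1a4, an organic anion transporter, was 4.12-fold higher (12386 in Ppara-null and 3005 in wild type) and 0 were at least 2-fold lower. Their median log2 ratio was 0.39, or 0.01 with the control scaling, and 3 of the 9 were above the floor on 1 array only. The deiodinase gene Dio2 gave 308.8 in Ppara-null and 295.8 in wild type, under the Bacillus control of each array, Crym was under the floor on both arrays, and Dio3 was not analysed here.

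Genes of thyroid hormone conjugation, which prepares the hormone for excretion, were higher in Ppara-null at all 4 measured members. Over all 13041 measured genes, 6473 were higher by sign. The sign of the 4 held with the control scaling. Sult1b1, a sulfotransferase that acts on thyroid hormones, gave 4534 in Ppara-null and 2208 in wild type (2.05-fold higher), and did not reach 2-fold after loess or with the control scaling. The median log2 ratio of the 4 was 0.97, and 0.59 with the control scaling. The Ugt1a glucuronidation genes share probe sets that carry several symbols and were left out.

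Of 10 measured receptor partners and coregulators, 0 were at least 2-fold apart, and the median log2 ratio was 0.10, or -0.28 with the control scaling. The largest was that of Ncoa2, a coactivator, at 4568 in Ppara-null and 2877 in wild type (1.59-fold higher), although another of its probe sets was at least 2.12-fold lower, or at least 1.35-fold against the Bacillus control. Of 7 measured genes of selenoprotein synthesis, the machinery that Dio1 needs, 0 were at least 2-fold apart. By sign, 5 of the 7 were lower and 2 higher (median log2 ratio -0.05), and all 7 were lower with the control scaling (median -0.43). When the measured probe sets of each gene were combined, 3 were lower and 4 higher (median 0.06). The largest absolute ratio among them was that of Sephs2, the selenophosphate synthetase, at 0.29 in log2 ratio. The other Sephs2 probe sets had log2 ratios of 0.58 and 0.63. Of 13 other selenoproteins, a list that also holds Sephs2, 0 were at least 2-fold apart and the median log2 ratio was 0.18, or -0.20 with the control scaling. Selenow differed most, with 16433 in Ppara-null and 9119 in wild type (1.80-fold higher) at a probe set whose name ends in _x_at. Its other probe set was just over 2-fold higher (5073 in Ppara-null and 2530 in wild type).

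Known liver targets of T3 went in both directions. Whether T3 raises or lowers each of these genes was not used here, so no T3 response is read from the signs. Of 19 measured, 4 were at least 2-fold lower in Ppara-null and 1 at least 2-fold higher, with a median log2 ratio of -0.06, and 6 were lower and 0 higher with the control scaling. Over all measured genes the shares were 4.99% lower and 2.80% higher. Malic enzyme Me1 gave 12173 in Ppara-null and 49442 in wild type (4.06-fold lower), and its other probe set 2889 in Ppara-null and 26476 in wild type (9.16-fold lower). The pyruvate dehydrogenase kinase Pdk4 gave 623.0 in Ppara-null and 2370 in wild type (3.80-fold lower), and the stearoyl-CoA desaturase Scd1 51606 in Ppara-null and 156806 in wild type (3.04-fold lower). The other probe set of Scd1 gave 5864 in Ppara-null and 47102 in wild type (8.03-fold lower). Fgf21, which encodes a fasting hormone, gave 168.9 in Ppara-null and 942.2 in wild type, at least 3.50-fold lower, or at least 2.23-fold against the Bacillus control. These 4 genes are also known targets of PPARα, but the rest of the list was not sorted by this trait. Its part in the ratios was not tested. Cyp7a1, the rate-limiting enzyme of bile acid synthesis, was 2.41-fold higher (27930 in Ppara-null and 11590 in wild type). Its other probe set did not reach 2-fold (8465 in Ppara-null and 4600 in wild type, 1.84-fold higher). Named after its values were seen, Thrsp (Spot 14) is a lipogenic gene used as a readout of T3 in liver. It gave 93978 in Ppara-null and 58444 in wild type, 1.61-fold higher, and its next probe set was 1.76-fold higher. Gpd2, also named after its values were seen, went the other way, with 2921 in Ppara-null and 4587 in wild type (1.57-fold lower). Its next probe sets were 1.77-fold and 1.42-fold lower, and its dimmest was under the floor on both arrays. By sign, 10 of the 19 were lower and 9 higher, and with the control scaling 13 were lower and 6 higher.

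**Figure D3:**
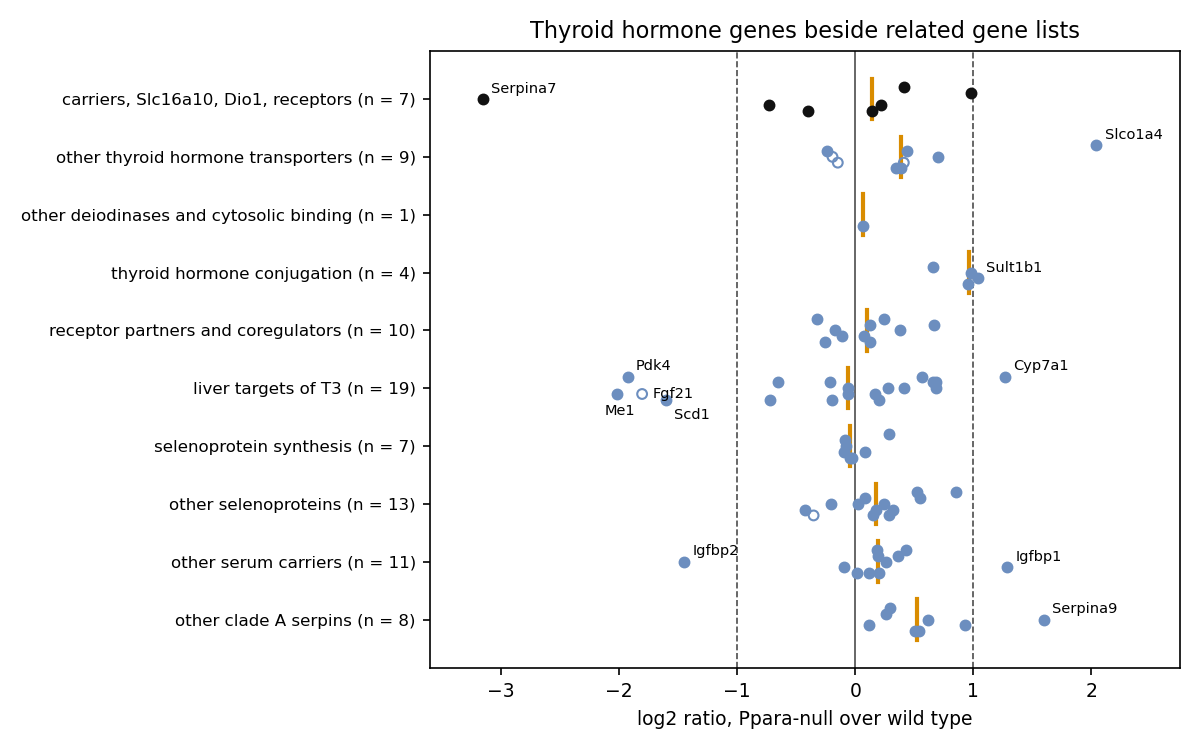
Log2 ratio of Ppara-null over wild type for each measured gene of the 7 described genes (black) and of the related lists (blue), with open circles for genes above the floor on 1 array only, an orange bar at each list's median and dashed lines at 2-fold. Genes at least 2-fold apart are named, and Serpina7, whose Ppara-null signal is at background, is drawn at its ratio as deposited (-3.16).

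Markers of other cell types were read from the same arrays, and their part in the ratios above was not tested. Of 9 measured Kupffer cell and macrophage markers, 8 were higher in Ppara-null and their signals summed to 25660 in Ppara-null and 18327 in wild type, with Marco under the floor on both arrays. With the control scaling 5 of the 9 were higher and 4 lower (median log2 ratio 0.06). Cd5l, a macrophage-secreted protein, was 2.12-fold higher (4052 in Ppara-null and 1910 in wild type), and it did not reach 2-fold with the control scaling. The hepatocyte markers summed to 1294336 in Ppara-null and 1108725 in wild type. The 8 endothelial markers, of which 5 were higher and 3 lower, summed to 15340 in Ppara-null and 13016 in wild type. The 7 stellate cell markers, of which 4 were higher and 3 lower, summed to 30420 in Ppara-null and 24534 in wild type, with Col1a1 under the floor on both arrays. With the control scaling 4 of the 8 endothelial and 5 of the 7 stellate cell markers were lower. Of the endothelial markers, Pecam1, an adhesion molecule, was at least 2.36-fold lower (228.0 in Ppara-null, under the floor, and 636.9 in wild type), and with floors at the Bacillus controls 0 of the 8 were at least 2-fold lower. Measured lymphocyte markers (3, of which 2 were higher with the control scaling and with median centring) summed to 2986 in Ppara-null and 1407 in wild type, with Cd3e, Cd3g, Cd4 and Cd79a under the floor on both arrays. Among them Ighm, the mu heavy chain, gave 1867 in Ppara-null and 680.2 in wild type (2.74-fold higher) at an _x_at probe set. This was the brightest of its 11 probe sets. After each gene's measured probe sets were combined, 0 of the 3 lymphocyte markers were at least 2-fold higher (median log2 ratio 0.22). The same count was found once _x_at and _s_at probe sets were left out (median 0.13). Erythroid markers (3, of which 2 were higher) summed to 7759 in Ppara-null and 4716 in wild type, and only 1 of the 3 was above the floor on both arrays. Neutrophil markers (3, all lower in the deposited scaling and 2 lower after quantile normalization) summed to 1209 in Ppara-null and 1514 in wild type, with S100a8 and S100a9 under the floor on both arrays. Cholangiocyte markers (3, of which 2 were higher) summed to 1060 in Ppara-null and 766.7 in wild type, with Krt7 under the floor on both arrays. Each of these 3 was under the floor on 1 array, so the sums include such signals. With the control scaling 2 of the 3 were lower. Thyroid follicle markers (3, of which 2 were lower) summed to 1031 in Ppara-null and 1013 in wild type, with thyroglobulin (Tg) under the floor on both arrays. Only 1 of these 3 was above the floor on both arrays. Of the choroid plexus, the other main site of Ttr, the markers Kl, Otx2 and Kcne2 were under the floor on both arrays. The 2 measured markers summed to 5880 in Ppara-null and 4764 in wild type. Nearly all of this was Aqp1 (5573 in Ppara-null and 4568 in wild type). The other, Folr1, gave 306.8 in Ppara-null and 195.6, under the floor, in wild type.

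**Figure D4:**
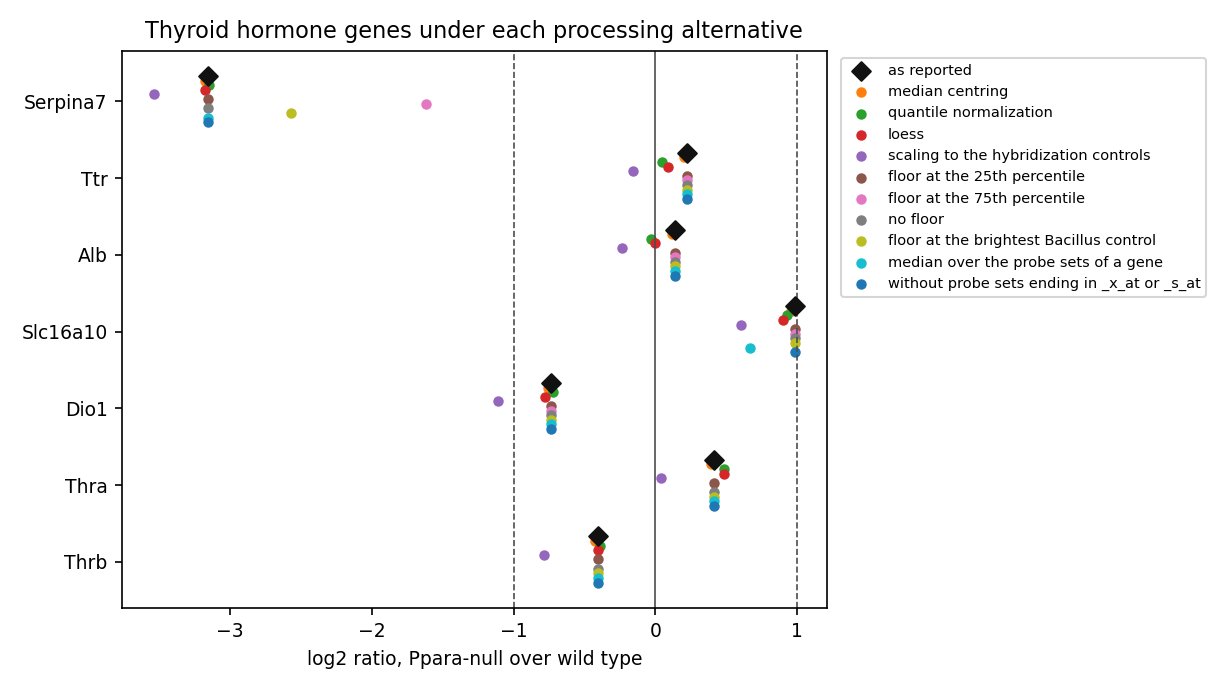
Log2 ratio of Ppara-null over wild type of each of the 7 genes as reported (diamonds) and under each processing alternative (coloured points), with dashed lines at 2-fold. Serpina7 stays below -1 under every alternative shown (-3.53 to -1.61), Dio1 passes -1 only with the control scaling, and Ttr and Alb lie on both sides of 0.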

How the data were processed

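Liver RNA pooled from 3 mice per genotype was hybridised to 1 array each. The deposited values are signal intensities on a linear scale, 1 per probe set. Per the labels, the authors made them with the Affymetrix statistical algorithm, which computes 1 signal from the probes of each set, and scaled each array to a target of 1000. The software version is not given in the sources used here. The arrays carry 45101 probe sets, of which 64 are controls.

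Probe sets were named with the 2016 annotation of the platform. Of 45037 probe sets, 34945 had 1 symbol, 932 had several and 9160 were unnamed here. Only those with 1 symbol were used, and 0 probe sets with several symbols named a member. All 7 members matched the RefSeq table (GRCm38.p6) by gene ID. The files name no genome build.

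Floors, log2 ratios and the choice of the brightest probe set were computed in Python 3.11.15 with pandas 2.3.3, and loess with statsmodels 0.14.6 (span 0.3). The procedure was tested on simulated data, with changes planted only in genes well above the floor and the same scatter for all genes. That simulation therefore did not cover signals as low as those of Thra, Thrb or Serpina7 in Ppara-null. The number of arrays limits the precision. Calls are by size (2-fold). The text names all members, Ppara, list members at least 2-fold apart (or the largest where none is) and the 3 genes nearest in ratio to Dio1. The rule also named 3 nearest to Serpina7, which are not given because its ratio is a bound. The members and lists were chosen with earlier results of these data known. Alternatives covered 4 scalings, 4 floors, the summary over probe sets, 1.5-fold and 3-fold thresholds, and leaving out the _x_at and _s_at probe sets.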

Additional observations from a re-analysis of the deposited data

How the results depend on the processing

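No paired analysis was possible because each genotype has 1 array. For the same reason no replicate could be left out. Of the member genes, Serpina7 was at least 2-fold lower in Ppara-null under all 12 alternatives. Its log2 ratio of -3.16 moved to -2.57 with floors at the brightest Bacillus control and to -1.61 with floors at the 75th percentile, where the Ppara-null signal is replaced by the floor. The other 6 members moved by at most 0.38 (control scaling), under the scatter SD of all genes (0.42) but over that of bright genes (0.31), such as Ttr, Alb, Slc16a10 and Dio1, and Thra and Thrb were not measured with the 75th percentile floor. Ttr (1 alternative) and Alb (3) changed sign. The number of members at least 2-fold lower, 1 as reported, was 2 with scaling to the hybridization controls, and at 1.5-fold 2 were lower and 1 higher. Counts over all genes, 651 lower and 365 higher, were 1759 and 109 with control scaling, 2336 and 1650 with floors at the 25th percentile, 157 and 98 at the 75th, 3096 and 2177 with no floor, 1925 and 1439 at 1.5-fold and 132 and 58 at 3-fold, and 297 and 303 with floors at the Bacillus controls (49.5% lower). Fewer genes pass a higher floor or threshold by construction. The cause of the shift under control scaling was not tested. Signal over background limits Serpina7 in Ppara-null, both receptors and the dimmer Slc16a10 probe sets.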
